A study of Mus musculus with 6 samples.

Results

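The genes described here are 10 mouse genes known from the visceral endoderm, the absorptive and secretory layer that surrounds the early embryo: Apoe, Afp, Ttr, Apoa1, Apoa2, Apob, Trf, Rbp4, Amn and Cubn. Their members were every non-control probe whose gene name in the scanner files is 1 of these symbols, which gave 14 probes on 41 spots out of 41174 probes on 43379 spots and 27961 gene names. Cells were grown for 12 days from embryonic stem cells of the V6.5 line (mixed C57BL/6 and 129SV strain background) that carry Dazl-GFP-V5, and the labels call the product in vitro primordial germ cells. All 3 groups came from these tagged cells and each holds 2 arrays: total RNA with no antibody, called input; RNA recovered with an antibody to PABP1, the poly(A)-binding protein; and RNA pulled down through GFP, the tag on DAZL. RNA was immunoprecipitated (IP) after ultraviolet crosslinking. The labels do not say whether the line is 1 clone, whether germ cells were sorted from the culture, or whether the 2 arrays of a group came from separate cultures, so every p-value covers no more than array-to-array spread. No array of an unrelated antibody or of untagged cells was analysed here.

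Visceral endoderm works much as a liver does before a liver exists. It packs lipid into lipoproteins built on apolipoproteins, secretes carriers of iron, retinol and thyroid hormone, and takes protein back up through the cubilin and amnionless receptor pair. Such genes were chosen as markers of other cells in the culture, to ask how their RNA is represented in each IP; which cells the RNA came from was not tested. In an array of pooled RNA, fewer cells of a type and less RNA per cell cannot be told apart.

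The listed genes fell into 2 sets of equal size. Apoe, Apoa2, Trf, Rbp4 and Amn, with 1 probe each, were well above background on all 6 arrays. Afp, Ttr, Apoa1, Apob and Cubn were not well above background on any array: of their 162 spot readings, on 9 probes, 1 was marked as well above background, and their processed signals ran from 1.4 to 11.9 with a median of 2.3. The lowest signal marked well above background on an array lay between 6.79 and 9.58. Of all 41174 probes on the array, 15576 were well above background on all 6 arrays, so such a split is common. The set is not read here as a full visceral endoderm signature because its most used markers, Afp and Ttr, were unread, not because of the count. It is called here by its genes. Amn and Cubn also encode parts of a membrane receptor, not secreted proteins.

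**Figure D1:**
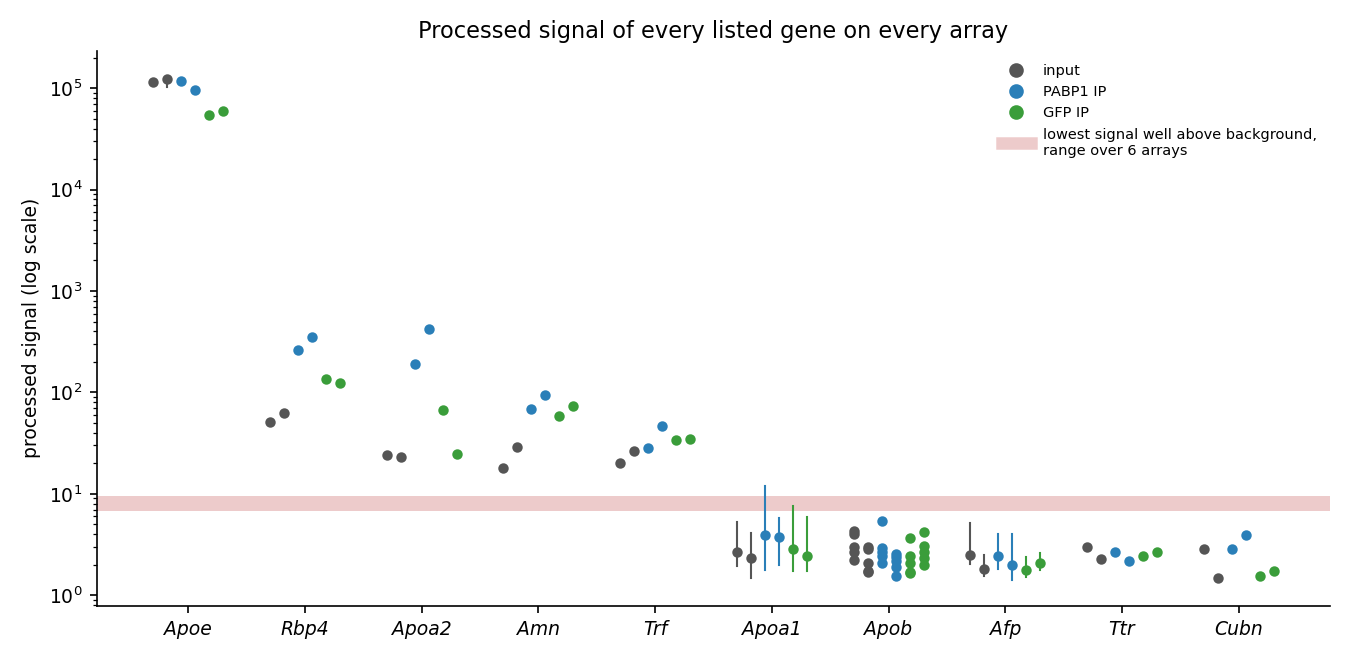
Processed signal of the 10 listed genes (log scale) on the 6 arrays, 1 point per probe and array; vertical lines run from the lowest to the highest spot of the probes with 10 spots (Apoe, Apoa1, Afp), and the shaded band spans the lowest signals marked well above background (6.79 to 9.58). Apoe lies between 51200 and 132000, Afp between 1.4 and 5.2. Signals of different probes are not on a common scale of RNA amount.

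Afp, the fetal serum albumin-like protein, was printed on 10 spots of each array, and 0 of its 60 readings were well above background. Mean signals over those spots were 2.5 and 1.83 in input, 2.44 and 1.99 in the PABP1 IP, and 1.78 and 2.09 in the GFP IP. All 6 values lie under the lowest signal that counted as well above background on their array, so no difference between groups can be read from them. Apoa1, the main protein of high-density lipoprotein, also had 10 spots, and 1 of its 60 readings was well above background, at 11.9 on replicate 1 of the PABP1 IP. The mean signal of that probe on that array was 3.94. The single spot for Ttr, the carrier of thyroid hormone and of retinol-binding protein, gave 2.19 to 2.99, and the spot for Cubn, the ligand-binding member of the receptor pair, gave 1.48 to 3.89. All 5 probes for Apob, the structural protein of very-low-density lipoprotein, stayed between 1.55 and 5.4, so 0 of its 30 readings were well above background. These genes were measured by the same flags as the others, and the arrays give only an upper bound for them.

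Transcription start windows are shown for Afp, the classical marker that was unread, and for Amn, a receptor gene that was read. Each has a single listed start, as have Apoa1, Apob and Cubn, whose windows are not shown. Both are RefSeq windows on GRCm38.p6 from 250 bases before to 50 bases after the start, at chr5:90490464-90490763 on the plus strand for Afp and chr12:111270846-111271145 on the plus strand for Amn. Capitals mark matches on either strand to TATAAA, the TATA box.
Afp: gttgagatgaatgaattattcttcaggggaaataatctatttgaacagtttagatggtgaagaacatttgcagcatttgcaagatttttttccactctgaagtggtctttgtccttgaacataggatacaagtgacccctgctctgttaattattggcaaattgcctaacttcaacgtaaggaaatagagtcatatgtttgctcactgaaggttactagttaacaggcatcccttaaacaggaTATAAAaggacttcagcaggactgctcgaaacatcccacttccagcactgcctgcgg
Amn: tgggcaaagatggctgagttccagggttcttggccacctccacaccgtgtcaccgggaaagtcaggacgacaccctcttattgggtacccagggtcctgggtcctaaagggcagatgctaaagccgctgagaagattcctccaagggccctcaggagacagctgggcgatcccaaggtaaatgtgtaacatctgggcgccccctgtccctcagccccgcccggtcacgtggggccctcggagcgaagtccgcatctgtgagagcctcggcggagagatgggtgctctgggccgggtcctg
The Afp window held 1 match and the Amn window 0. Of the unread genes not shown, Apob had 1 match and Apoa1 and Cubn had 0. The read genes Apoe, Apoa2 and Rbp4 have several listed starts, and for each gene 1 of these windows held the motif. Of 32851 RefSeq windows of 300 bases, 13.6% held the motif. A match is a description of the letters only.

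Differences between groups were computed for the probes read, on log2 of the processed signal divided by the 75th percentile of its array, called the scaled signal. Testing required a signal well above background on the 2 arrays of any 1 group, a condition that 21058 probes met. Limma's standard errors follow the ± sign (n = 2 arrays a group), and adjusted p-values are limma's after the Benjamini-Hochberg step over all 21058 probes, with a threshold of 0.05. Only 5 listed genes entered, so the counts below do not cover all 10 genes.

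Apoe, which carries lipid between cells on lipoproteins, was lower in both IPs than in input, except that spike-in scaling turned the PABP1 IP value upward. Its processed signal was 114000 and 124000 in input, 118000 and 95300 in the PABP1 IP, and 54500 and 60000 in the GFP IP, as means of 10 spots. The GFP IP arrays were lowest, while the PABP1 IP and input arrays overlapped before scaling. The 75th percentile was 63.6 and 75.4 in input, 105 and 146 in the PABP1 IP, and 158 and 163 in the GFP IP. After division by it the log2 scaled signal was 10.81 and 10.69 in input, 10.14 and 9.35 in the PABP1 IP, and 8.43 and 8.52 in the GFP IP, and the 3 groups no longer overlapped. Apoe was 4.83-fold lower in the GFP IP than in input (log2 difference -2.27 ± 0.29, adjusted p = 0.00317). That difference was -1.09 after quantile normalisation and -1.24 after cyclic loess, and under spike-in scaling its call was lost (-1.26, adjusted p = 0.0575). It was 2.01-fold lower in the PABP1 IP than in input (-1.01 ± 0.29, adjusted p = 0.0315) and 2.4-fold lower in the GFP IP than in the PABP1 IP (-1.27 ± 0.29, adjusted p = 0.0128). No Apoe spot was marked saturated, but nor was any other non-control spot on any array, so the flag does not set Apoe apart. Whether the brightest signals kept their proportion was not tested. The PABP1 IP difference from input lost its call without either input array, without replicate 2 of the PABP1 IP (-0.62, adjusted p = 0.0692) and without either GFP IP array, and turned to 1.25 (adjusted p = 0.025) under spike-in scaling. The difference between the IPs became 0.26 after quantile normalisation (adjusted p = 0.166) and 0.50 after cyclic loess (adjusted p = 0.0717), and without replicate 1 of the GFP IP its adjusted p was 0.0534.

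Apoa2, a structural protein of high-density lipoprotein, was highest in the PABP1 IP. Its processed signal was 24.2 and 23.3 in input, 189 and 423 in the PABP1 IP, and 67.5 and 24.5 in the GFP IP. On the log2 scaled signal these were -1.39 and -1.69 in input, 0.85 and 1.53 in the PABP1 IP, and -1.23 and -2.73 in the GFP IP. Both PABP1 IP arrays lay above all other arrays, and the GFP IP arrays lay on either side of the input pair. Apoa2 was 6.66-fold higher in the PABP1 IP than in input (2.74 ± 0.54, adjusted p = 0.0093) and 9.01-fold lower in the GFP IP than in the PABP1 IP (-3.17 ± 0.54, adjusted p = 0.00464). The latter was -3.93 without replicate 1 of the GFP IP, -2.42 without its replicate 2 and -1.94 with normexp background correction. In the GFP IP against input it did not pass the test (-0.44 ± 0.54, 95% interval -1.79 to 0.92, adjusted p = 0.515). The sign of that difference depended on the GFP IP array kept and on the scaling. It was -1.19 without replicate 1 of the GFP IP and 0.32 without replicate 2, 0.13 with median scaling and 0.58 with spike-in scaling, and it was called lower (-0.98, adjusted p = 0.0354) with slide as a block. Without replicate 2 of the input the rise in the PABP1 IP had an adjusted p of 0.0514.

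Rbp4, which carries retinol in the blood, was raised over input in the PABP1 IP and did not pass the test in the GFP IP. Its processed signal was 50.8 and 62.7 in input, 260 and 350 in the PABP1 IP, and 135 and 124 in the GFP IP. Scaled log2 values were -0.32 and -0.27 in input, 1.31 and 1.26 in the PABP1 IP, and -0.23 and -0.39 in the GFP IP. The PABP1 IP arrays stood apart from the other 4, and the GFP IP values spanned the input values. Rbp4 was 2.99-fold higher in the PABP1 IP than in input (1.58 ± 0.16, adjusted p = 0.00139) and 3.02-fold lower in the GFP IP than in the PABP1 IP (-1.60 ± 0.16, adjusted p = 0.000924). In the GFP IP against input the difference was -0.02 ± 0.16, with a 95% interval of -0.42 to 0.39 (adjusted p = 0.941).

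Trf, the iron carrier transferrin, showed the smallest span between group means of the 5 genes on the scaled signal. Its processed signal was 20.1 and 26.4 in input, 28.3 and 46.8 in the PABP1 IP, and 34 and 34.9 in the GFP IP. Scaled log2 values were -1.66 and -1.51 in input, -1.89 and -1.64 in the PABP1 IP, and -2.22 and -2.22 in the GFP IP, so that the GFP IP arrays were lowest and the other groups overlapped. Trf was 1.55-fold lower in the GFP IP than in input (-0.63 ± 0.17, adjusted p = 0.03). That call was lost without any 1 of the 4 input and GFP IP arrays, where the difference ran from -0.71 to -0.56. It was also lost with quantile (-0.38, adjusted p = 0.167), cyclic loess (-0.34, adjusted p = 0.266) and median scaling (-0.07, adjusted p = 0.871). Under spike-in scaling Trf stood 0.38 above input. It did not pass the test in the PABP1 IP against input (-0.18 ± 0.17, interval -0.62 to 0.26, adjusted p = 0.429) or between the IPs (-0.45 ± 0.17, interval -0.89 to -0.01, adjusted p = 0.0683). Between the IPs it was called lower with slide as a block (-0.45, adjusted p = 0.0415), among probes read on all 6 arrays (adjusted p = 0.045) and under spike-in scaling (-1.70, adjusted p = 0.00324).

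Amn, the membrane anchor that brings cubilin to the cell surface, was higher in the PABP1 IP than in input. The processed signal was 17.8 and 29.3 in input, 69.4 and 94.4 in the PABP1 IP, and 58.9 and 73.9 in the GFP IP. Scaled log2 values were -1.84 and -1.36 in input, -0.60 and -0.63 in the PABP1 IP, and -1.42 and -1.14 in the GFP IP. Input and GFP IP values overlapped, and both PABP1 IP values lay above them. Amn was 1.98-fold higher in the PABP1 IP than in input (0.99 ± 0.23, adjusted p = 0.0156), and in the GFP IP against input it did not pass the test (0.32 ± 0.23, interval -0.25 to 0.89, adjusted p = 0.274). It was 1.59-fold lower in the GFP IP than in the PABP1 IP (-0.67 ± 0.23, adjusted p = 0.047). This last call was lost in the absence of any 1 of the 6 arrays (adjusted p up to 0.181), and the rise in the PABP1 IP was lost without replicate 1 of the input (0.75, adjusted p = 0.0864) without either PABP1 IP array (adjusted p = 0.057 and 0.0538), without the filter on dim probes (adjusted p = 0.06) and with normexp background correction (0.23, adjusted p = 0.269).

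**Figure D2:**
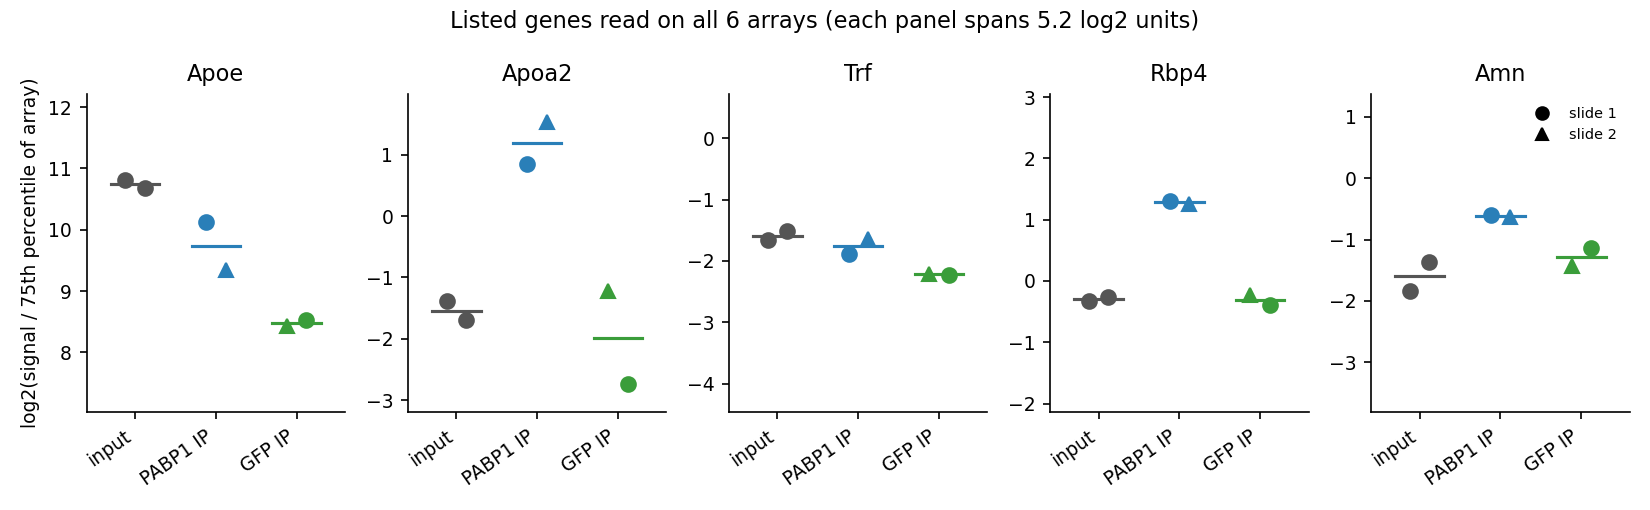
Log2 scaled signal (processed signal over the 75th percentile of its array) of the 5 listed genes read on all 6 arrays; each point is 1 array, circles are slide 1 and triangles slide 2, and lines are means of 2 arrays. Rbp4 and Apoa2 are highest on both PABP1 IP arrays, while Apoe falls from 10.81 and 10.69 in input to 8.43 and 8.52 in the GFP IP.

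Over the 5 genes tested, 0 were higher and 2 lower in the GFP IP than in input, where 20.7% of all probes were called higher and 32.5% lower. Their median log2 difference was -0.44, against -0.38 over all probes. In the PABP1 IP against input, 3 were higher (Apoa2, Rbp4, Amn) and 1 lower (Apoe), beside 30.8% and 23.9% of all probes, with a median of 0.99 against 0.13. Between the IPs, 0 were higher and 4 lower in the GFP IP, beside 24.4% and 38.4% of all probes, with a median of -1.27 against -0.45. The 3 comparisons share arrays and so are not independent of each other. With 5 genes these counts are a description and no set was tested. Between GFP IP and input the members' median relative to that of all probes was -0.06, and it ran from -0.31 to 0.46 with 1 array left out and to 0.61 without the filter on dim probes, so it has no settled sign.

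**Figure D3:**
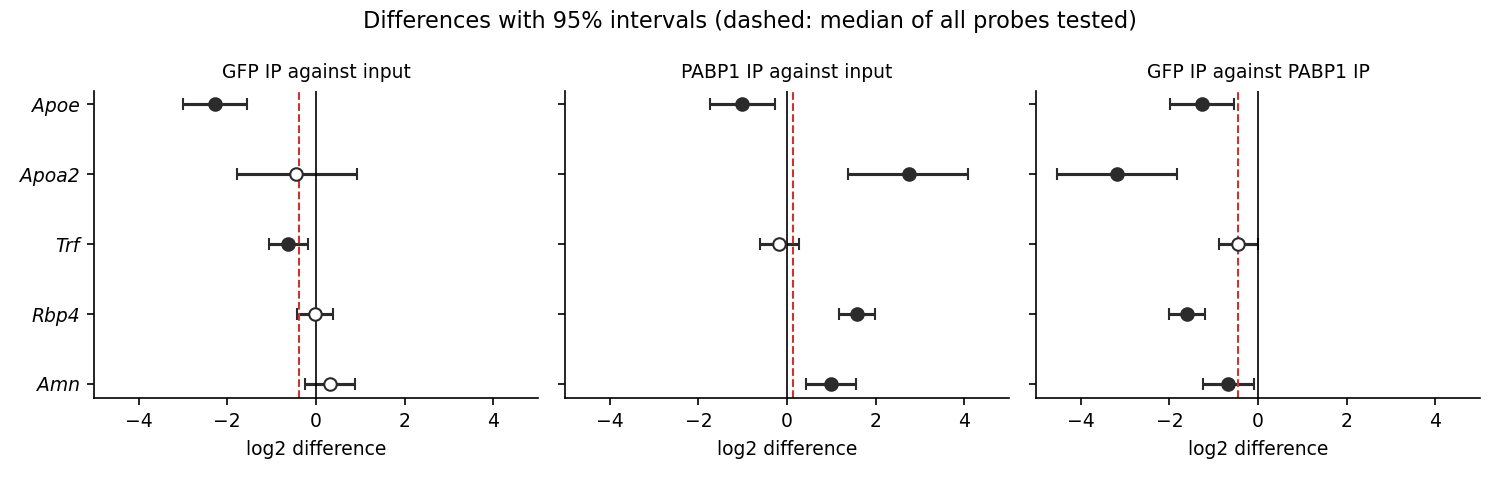
Log2 differences of the 5 listed genes in 3 comparisons, with limma's 95% intervals; filled points passed the threshold of 0.05 after adjustment, open points did not, and dashed lines are the median of all 21058 probes (-0.38, 0.13 and -0.45). Apoe lies below 0 in all 3 panels (above 0 between the IPs with quantile or loess scaling, and in the PABP1 IP with spike-in scaling), and Apoa2, Rbp4 and Amn pass upward in the middle panel.

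Slide and group could be separated in part. Replicate 2 of the PABP1 IP and replicate 1 of the GFP IP were hybridised on slide 2 and the other 4 arrays on slide 1, and scans followed the slides. The GFP IP minus PABP1 IP difference had the same sign on both slides for the 5 genes. On slides 1 and 2 it was -3.58 and -2.76 for Apoa2, -1.70 and -1.49 for Rbp4, -1.61 and -0.92 for Apoe, -0.54 and -0.79 for Amn, and -0.33 and -0.57 for Trf. These are single arrays against single arrays.

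The scaling of the arrays set the sign of several differences. Among calls in the GFP IP against input, 39% were upward, and this share was 48.8% after quantile normalisation, 56.5% after cyclic loess, 70.6% with arrays set to the median of all probes, 92.7% under spike-in scaling, 28.5% with normexp background correction and 17.5% without the filter on dim probes. In the PABP1 IP against input it was 56.3% and, under spike-in scaling, 97.6%. Between the IPs it was 38.9%, and 49%, 56.9%, 53.6% and 8.19% after quantile, loess, median and spike-in scaling. Spike-in scaling moved the median of all probes by 1.02 and 2.26 for the GFP and PABP1 IPs against input and by -1.24 between the IPs. Median scaling moved it by 0.56, 0.15 and 0.41. Relative to the median of all probes a constant scaling leaves each gene in place, so under median and spike-in scaling too Apoa2 stayed at 2.61 and Rbp4 at 1.45 above it in the PABP1 IP against input, and Apoe at -1.14. The Apoe value between the IPs relative to that median was -0.81 in the scaled data, 0.41 after quantile normalisation and 0.43 after loess.

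**Figure D4:**
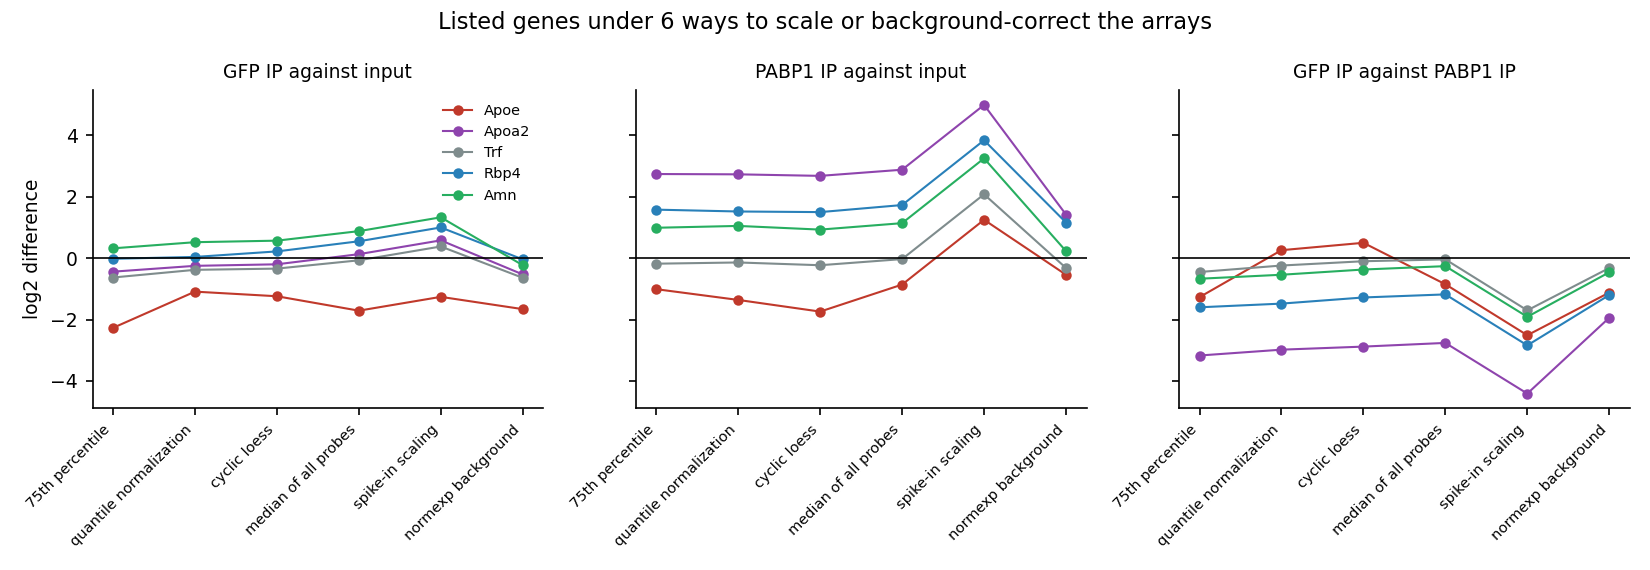
Log2 differences of the 5 listed genes under 6 ways of scaling the arrays or correcting their background. Apoa2 and Rbp4 stay above 0 in the PABP1 IP against input and below 0 between the IPs in all 6, while Apoe changes sign between the IPs under quantile normalisation (0.26) and cyclic loess (0.50).

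As a check of the IP, Dazl itself was read by 2 probes. Relative to input it was raised 13.8-fold in the GFP IP by the brighter probe (3.78 ± 0.27, adjusted p = 0.00147) and 5.44-fold by the other. Dazl was not raised in the PABP1 IP. Its brighter probe gave -1.80 ± 0.27 there (adjusted p = 0.00382), a value that became 0.45 under spike-in scaling. The other probe gave -0.73 ± 0.31 and did not pass the test (adjusted p = 0.0976). Pabpc1, which encodes the protein bound by the PABP1 antibody, passed no test, with differences of -0.87 in the GFP IP and -0.13 in the PABP1 IP against input. Array replicates correlated at 0.98 to 0.991 over 21058 probes, and arrays of different groups at 0.861 to 0.923.

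Other genes of the same biology gave a wider view. A list of 18 further secreted, lipoprotein and lysosomal genes of the visceral endoderm had 16 on the array and 7 that were well above background on all 6 arrays: Apoc1, Apoc2, Apom, Fgg, Ahsg, Npc2 and Ctsh. All 7 were lower in the GFP IP than in input, with a median of -1.41, beside 32.5% and -0.38 over all probes. All 7 were lower in the GFP IP than in the PABP1 IP, with a median of -2.33, beside 38.4% and -0.45. In the PABP1 IP against input 4 were higher, 0 lower and 3 did not pass, with a median of 1.05, beside 30.8% higher, 23.9% lower and 0.13. The count against input rested on the scaling: 4 were called lower with median scaling, 0 with spike-in scaling and 4 without replicate 1 of the input, while 7 of 7 were called lower between the IPs under every alternative run. The count in the PABP1 IP was 7 with spike-in scaling and 2 without replicate 2 of the input. Npc2 and Ctsh encode lysosomal proteins rather than serum proteins. The genes listed but not well above background on any array were Apoa4, Apoc3, Apoh, Alb, Ambp, Fga, Fgb, Serpina6 and Mttp.

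Apoc1, a small apolipoprotein, had a processed signal of 23700 and 25100 in input, 93400 and 86800 in the PABP1 IP, and 14900 and 15600 in the GFP IP. It was lower in the GFP IP than in input (-1.89 ± 0.24, adjusted p = 0.00315) and than in the PABP1 IP (-2.94 ± 0.24, adjusted p = 0.000611), and the 3 groups did not overlap. Apoc2, the activator of lipoprotein lipase, read 264 and 275 in input, 1260 and 1440 in the PABP1 IP, and 269 and 261 in the GFP IP. It rose in the PABP1 IP over input (1.48 ± 0.18, adjusted p = 0.00224) and was lower in the GFP IP than in the PABP1 IP (-2.72 ± 0.18, adjusted p = 0.000532). Apom, another high-density lipoprotein gene, rose in the PABP1 IP (1.32 ± 0.26, adjusted p = 0.00931). Fgg, the fibrinogen gamma chain, read 132 and 195 in input and 84.9 and 133 in the GFP IP and was lower there after scaling (-1.81 ± 0.26, adjusted p = 0.00447), while its partner chains Fga and Fgb were unread. Ctsh, a lysosomal protease, was lower in the GFP IP than in input (-1.73 ± 0.22, adjusted p = 0.00314).

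Neighbouring apolipoprotein genes were also looked at, a grouping chosen after their values were seen, with no test. In the gene order of RefSeq on GRCm38.p6, Apoc2, Apoc4, Apoc1 and Apoe neighbour each other on chromosome 7, and Apoc1, Apoc2 and Apoe were well above background on all 6 arrays and Apoc4 on 5. Apoa1, Apoc3, Apoa4 and Apoa5 neighbour each other on chromosome 9, and there Apoa1, Apoc3 and Apoa4 were above background on 0 arrays and Apoa5 on 2. Other apolipoprotein genes, read (Apoa2, Apom) or unread (Apob, Apoh), lie in neither cluster. Within the first cluster the differences from input were unequal: in the PABP1 IP they were -1.01 for Apoe, 1.05 for Apoc1, 1.48 for Apoc2 and 2.07 for Apoc4, and in the GFP IP -2.27, -1.89, -1.24 and -0.52. Apoe was thus the one gene of the 4 with a negative difference in the PABP1 IP, a sign that turned under spike-in scaling (1.25).

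Receptors for the secreted proteins included Tfrc, which was raised in the GFP IP over input and, except under spike-in scaling (0.86, adjusted p = 0.144), over the PABP1 IP. Of 8 described, 6 were tested, and the GFP IP against input gave 1 higher (Tfrc) and 0 lower, beside 20.7% and 32.5% of all probes. Tfrc, the receptor that takes up transferrin, had a processed signal of 289 and 333 in input, 536 and 947 in the PABP1 IP, and 3730 and 4240 in the GFP IP. The GFP IP arrays lay far above the others (2.47 ± 0.19 against input, adjusted p = 0.00156, and 2.11 ± 0.19 against the PABP1 IP, adjusted p = 0.000718). The PABP1 IP was lower than input for 2 of the 6 receptors and higher for 0, beside 23.9% and 30.8% of all probes. These were Lrp1, a large endocytic receptor (-1.20 ± 0.20, adjusted p = 0.00544), and Abca1, a lipid exporter that acts with Apoa1 (-1.30 ± 0.39, adjusted p = 0.0375), and both had positive values under spike-in scaling. The Abca1 call was lost without either input array and without replicate 1 of the PABP1 IP, with adjusted p up to 0.155. Between the IPs 3 were higher and 1 lower in the GFP IP, beside 24.4% and 38.4% of all probes, the latter being Scarb1, a high-density lipoprotein receptor (-1.33 ± 0.23, adjusted p = 0.00499; -0.92 with median scaling, adjusted p = 0.0813; -0.55 after cyclic loess, adjusted p = 0.0837). Between receptors and secreted proteins no difference was tested.

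Partners of the cubilin receptor, 6 listed and 5 tested, gave 0 higher and 1 lower in the GFP IP against input, 0 and 2 in the PABP1 IP against input, and 1 and 1 between the IPs, counts too small to set apart from the shares over all probes given above. Lrpap1, a chaperone of lipoprotein receptors, was lower in the GFP IP than in input (-1.21 ± 0.19, adjusted p = 0.00538; its second probe -0.61), a call lost with median scaling (-0.64, adjusted p = 0.148) or spike-in scaling (-0.19, adjusted p = 0.838). Lrp2, the large co-receptor megalin, was lower in the PABP1 IP than in input (-1.86 ± 0.34, adjusted p = 0.00754; 0.40 under spike-in scaling) and was well above background on 5 arrays. Clcn5, an endosomal chloride transporter, was lower in the PABP1 IP than in input by its brighter probe (-1.78 ± 0.23, adjusted p = 0.00265; 0.48 under spike-in scaling; second probe -1.39), but between the IPs its probes disagreed (1.93 and -0.20).

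Of 9 transcription factors that direct endoderm, Hhex and Eomes were well above background on both input arrays, Sox7 and Foxa1 on no array, and Gata4, Sox17 and Foxa2 on no input array. Over all spots, 41.5% and 46.1% were well above background on the input arrays, the share beside which the detection counts in this paragraph stand. By its brighter probe Hhex exceeded input in the GFP IP (1.73 ± 0.21, adjusted p = 0.00285) and in the PABP1 IP (1.33 ± 0.21, adjusted p = 0.00437). Its second probe was not read in input, at 0.413 of the array median there and 3.09 in the GFP IP. The difference of 2.35 for that probe is therefore taken against background and adds no support. No count is read from the 7 regulators tested, since Foxa2, Gata4, Sox17, Gata6 and Hnf4a passed the filter through an IP group and not through input. The same holds for Lrp8 among the receptors, Dab2 among the cubilin partners, Thbd in parietal endoderm and G6pc in liver. The counts of those lists include these genes and are limited by it. Genes of the parietal endoderm, the sister layer that secretes basement membrane, were well above background on both input arrays for 9 of 10, among them Sparc, Lama1 and Col4a1. In the GFP IP against input 0 were higher and 3 of 10 lower, a share near the 32.5% of all probes. The parietal counts were 1 higher and 3 lower in the PABP1 IP against input, beside 30.8% and 23.9% of all probes. Between the IPs they were 1 higher and 4 lower, beside 24.4% and 38.4%. Of 5 genes of mature liver, 1 (Tat) was well above background on both input arrays. Of the 2 tested, 0 were higher and 1 lower in the GFP IP than in input, beside 20.7% and 32.5% of all probes. Of 11 primordial germ cell genes on the array, 10 were well above background on both input arrays, and 6 of the 10 tested rose and 2 fell in the GFP IP relative to input, beside 20.7% and 32.5% of all probes. Those that rose include Dazl, which encodes the tagged protein and served above as the check of the IP. The upward share of all calls in this comparison ran from 17.5% to 92.7% with the processing, which limits this count. In the PABP1 IP against input 5 of the 10 germ cell genes rose and 2 fell, beside 30.8% and 23.9% of all probes. Between the IPs 5 were higher and 3 lower in the GFP IP, beside 24.4% and 38.4%. More germ cell genes rose than fell in both IPs, so this was not particular to the GFP IP. Many genes of these lists are also expressed in other cells of such cultures, and the part of each cell type in the listed genes was not tested.

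The listed genes were also set against their own average. The centred log2 values of the 5 read genes were averaged to 1 profile over the 6 arrays, which spans 1.57, and the root mean square distance of each gene to it was 0.33 for Rbp4, 0.45 for Amn, 0.48 for Trf, 0.87 for Apoe and 0.96 for Apoa2. The 5 genes outside the list nearest to this average were Dcp1b (0.043), Eef1d (0.045), Yipf1 (0.051), Tmem177 (0.053) and Dedd2 (0.059), the closest of 21058 probes over 6 arrays.

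The authors' deposited table of group means, scaled to the median of each array, did not match the scanner files for several listed genes. In the authors' deposited table the 10 rows for Afp had a median of 66.9 in input, 44.5 in the PABP1 IP and 9.51 in the GFP IP, while the scanner files on the same scale gave 0.319, 0.239 and 0.185. For Apoa1 the authors' deposited table gave 5.85, 5.12 and 1.18 in the same order, against 0.4, 0.387 and 0.278 from the scanner files. Rbp4 stood at 208, 406 and 108 in the authors' deposited table, with the GFP IP lowest. In the scanner files it stood at 9.05, 30.1 and 13.5, with input lowest. For Apoe the values were 6000, 2810 and 959 in the authors' deposited table and 19200, 10700 and 5830 in the scanner files, so the order of the groups was the same. Apoa2 was highest in the PABP1 IP in both, at 4.56 in the authors' deposited table and 29.8 in the scanner files. Amn was lowest in the GFP IP in the authors' deposited table (1.56, against 2.25 in input), whereas the scanner files put input lowest (3.72, against 6.74). Trf gave 1.48, 3.18 and 2.64 in the authors' deposited table, with input lowest. The scanner files gave 3.7, 3.69 and 3.55 for Trf, too close to order the groups. With median scaling limma gave -0.07 in the GFP IP against input (adjusted p = 0.871) and -0.04 between the IPs (adjusted p = 0.919). Ttr stayed at or below 0.217 in the authors' deposited table, and Cubn was not matched to a row.

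**Figure D5:**
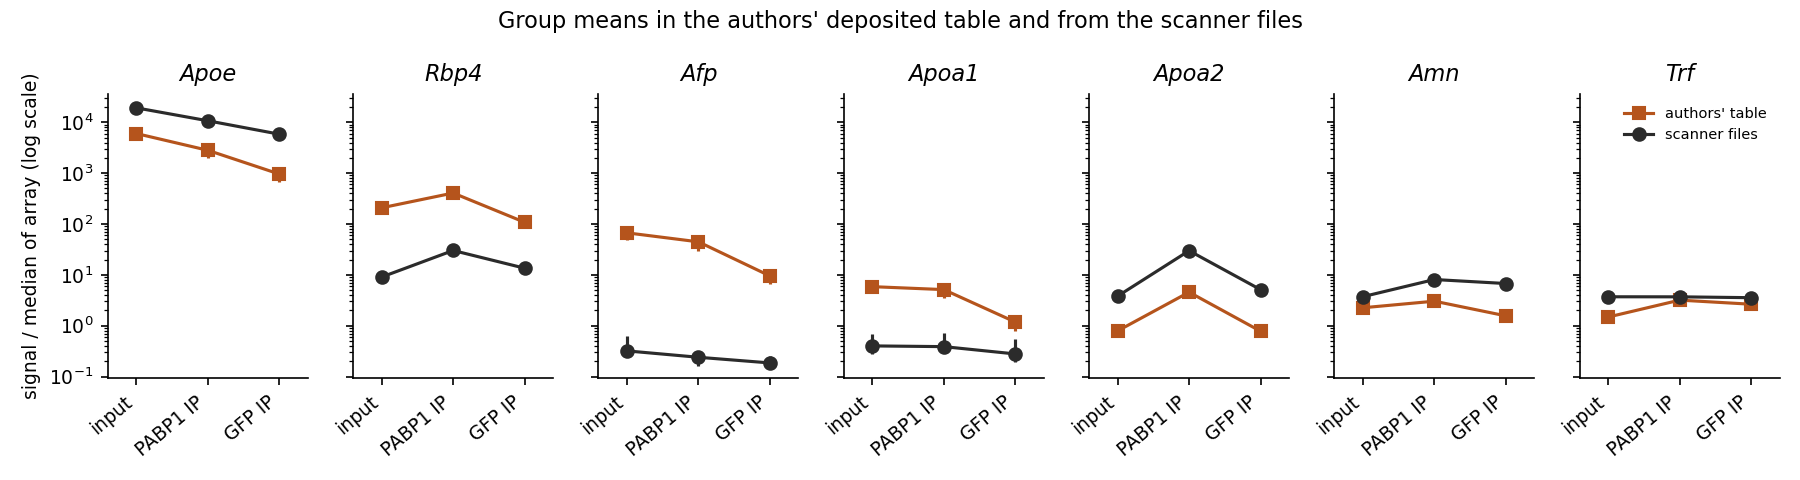
Group means of 7 listed genes on the scale of the array median (log scale), from the authors' deposited table (squares) and recomputed from the scanner files (circles); vertical lines run from the lowest to the highest row or spot of genes with 10. Afp reads 66.9 in input in the authors' deposited table and 0.319 from the scanner files, while Apoe falls from input to the GFP IP in both.

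The mismatch was not a constant factor. Over 8144 probes compared, the group levels of the authors' deposited table correlated with those of the scanner files at 0.862 in input, 0.92 in the PABP1 IP and 0.912 in the GFP IP. These probes are not independent replicates, and no p-value was computed. The log2 differences correlated less, at 0.661 for the PABP1 IP minus input and 0.727 for the GFP IP minus input, across the same probes of the authors' deposited table and the scanner files. Replicate arrays correlated at 0.98 to 0.991, but as single arrays over 21058 probes, which is not a like comparison. Some genes also had unequal numbers of entries, as Apob with 3 rows in the authors' deposited table and 5 spots in the scanner files. Among other listed endoderm genes, the authors' deposited table gave Ambp 49.8, Fgb 12.4 and Foxa2 18.2 in input, where the scanner files gave 0.509, 0.647 and 0.715. No test was run on the authors' means, and the cause of the mismatch was not tested. In both sources Apoe fell from input to the GFP IP and Apoa2 and Rbp4 were highest in the PABP1 IP, but whether Afp and Apoa1 were present in these cells differs with the source used.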

How the data were processed

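RNA was measured on 6 one-colour arrays, 2 per group. Raw intensity and a background-subtracted intensity, the processed signal, were written per spot by Agilent Feature Extraction 9.1.3.1, per the file headers, with other columns that flag spots well above background, saturated or outlying. The authors also deposited a table of group means and standard errors of signal over the array median, and a quality score that was not used. Here, log2 processed signals were averaged over the unflagged spots of a probe, and the array's 75th percentile was subtracted. Each of 21058 probes (well above background throughout any 1 group) was tested on its own with limma 3.58.1 in R 4.3.3 (lmFit, eBayes, two-sided, all 6 arrays, 3 residual degrees of freedom). Precision is limited by the number of arrays: an exact permutation test of 2 against 2 cannot go below 0.333. The listed genes and all gene lists were chosen with earlier results of these data known. Named were every listed gene, Dazl, Pabpc1, up to 3 called genes per further list with the largest differences, and the 5 nearest profiles; the text gives some. For genes with several probes the brightest kept one is quoted. Of 41174 probes 22951 were named through an accession in a RefSeq table of GRCm38.p6, used for names and gene order. Some listed pathway genes are not reported here. The scripts were tested on simulated data. Alternatives covered scaling (quantile, cyclic loess, median, 8 spike-in probes), normexp with an offset of 50, filters, probe choice, an eBayes trend, slide, replicate number and each array left out.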

Additional observations from a re-analysis of the deposited data

How the results depend on the processing

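Rbp4 kept its calls in the PABP1 IP against input and between the IPs under every alternative run, as did Apoa2 between the IPs; the Apoe call in the GFP IP against input was lost with spike-in scaling alone (-1.26, adjusted p = 0.0575). Of the listed genes, those called lower in the GFP IP against input numbered 1 with quantile, loess or median scaling, without the filter and with an intensity trend, 0 with spike-in scaling, and 1 to 2 with 1 array left out; 1 was higher (Amn) with median or spike-in scaling (0.88 and 1.33). In the PABP1 IP against input 5 were higher and 0 lower with spike-in scaling, 0 were lower with normexp, without the filter and within slide 1, and 0 to 1 with 1 array left out. Between the IPs 2 were lower with quantile or loess scaling, and 2 to 3 with 1 array left out. All probes called came to 11195 in the GFP IP against input (7094 with spike-in scaling, 21803 without the filter, 5699 to 11370 with 1 array left out), to 11517 in the PABP1 IP against input (18018 with spike-in scaling, 7490 to 11274 with 1 array left out), and to 13222 between the IPs (10840 to 12414). Spike-in scaling reversed Trf (0.38 in the GFP IP, 2.08 in the PABP1 IP against input), and in the PABP1 IP against input Apoe (1.25), Lrp2 (0.40), Clcn5 (0.48), Abca1 (0.95), Lrp1 (1.06), Gata6 (1.55) and Dazl (0.45), and between the IPs Foxa2 (-0.42). Normexp reversed Foxa2 in the GFP IP (-0.34) and PABP1 IP (-0.36) against input. Between the IPs, Apoe reversed with quantile (0.26) and loess (0.50) scaling and Lrpap1 with loess (0.15). The cause was not tested. Deviations of same-numbered arrays correlated at 0.15 for the PABP1 IP and input, -0.02 for the GFP IP and input, and -0.62 for the IPs. Same-numbered IP arrays lay on different slides, so the last value cannot tell replicate number from slide. Whether the replicate numbers pair the arrays was therefore not settled. With the replicate number as a block the Amn difference between the IPs was -0.67 (adjusted p = 0.0535). Crossing the numbers of the IP arrays, an alternative added after seeing the data, gave 5952 higher and 10129 lower calls; the alternatives for the further gene lists were also added then. Signal over background limits Afp, Ttr, Apoa1, Apob and Cubn, for which no difference could be read. With 1 array left out, the lone array of a group is assumed to vary like the others.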
